A study of Mus musculus with 53 samples.

Results

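The genes described here encode the enzymes that put acetyl groups on histones, those that remove them, and bromodomain proteins that bind them. They were chosen by gene symbol, with earlier results of these data known. The list took in the 11 Hdac genes, the 7 sirtuins, the Kat genes with numbers from 2 to 8, Hat1, Crebbp and Ep300. It also held the Brd genes, Brpf1 and Brpf3. That gave 38 of the 20214 protein-coding genes in the table, of which 18 were erasers, 10 writers and 10 readers, and all 38 were listed above 0. Roles were given by gene family. Some genes counted as erasers are known for targets other than histones or for work outside the nucleus, as named below. The study sequenced RNA from cultured mouse neurons and astrocytes, adult hippocampus and embryonic cortex, 53 libraries in 19 groups of 2 to 4, to ask how neuronal activity and adult plasticity act on mRNA through histone turnover. The group used here is cortex of C57bl/6 embryos at E16.5 (mid to late neurogenesis), listed as controls with no stimulation, 3 libraries for which the authors deposited 1 mean per gene. The other 50 libraries are not analysed here. With 1 mean per gene, no value has an SD, no difference can be set against replicates, and no test was made. The labels do not say whether the 3 libraries were from separate animals or litters, or from pooled tissue.

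Acetylation of histone tails neutralises their charge and makes docking sites for bromodomains, and it marks active promoters and enhancers. Writers are acetyltransferases of the GNAT, p300/CBP and MYST families. Erasers are the zinc-dependent histone deacetylases, grouped in classes I, IIa, IIb and IV, and the sirtuins, which consume NAD. In developing cortex, class I deacetylases and the p300/CBP and MYST enzymes are known for roles in the switch from progenitor to neuron, and human mutations in several of these genes cause intellectual disability syndromes.

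Markers of the labelled tissue were present. All 11 cortical markers were at 1 RPKM or more, from Emx1 at 1.82 to Neurod6 at 194 RPKM. Of 15 markers of other cells and regions, 4 reached 1 RPKM (26.7%), against 31.6% of protein-coding genes. These were the red blood cell genes Hba-a1 (53.6 RPKM) and Hbb-bs (52.6 RPKM), endothelial Cldn5 (17.3 RPKM) and oligodendrocyte Mog (1.02 RPKM). Pecam1, also endothelial, and Mbp, also of oligodendrocytes, were at 0.133 and 0.122 RPKM, while Gata4, Hoxb4 and Hoxb8 were listed at 0. Per kilobase of exon, a scale explained below, 8 of the 15 reached 1 RPKM, against 54.1% of protein-coding genes. The part of these other cells in the levels below was not tested. In a tissue homogenate, fewer cells of a type and less RNA per cell cannot be told apart.

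The deposited unit, reads per kilobase and per 1 M reads (RPKM), divides by the whole gene, introns included. Low values of genes with several exons showed this when multiplied by the gene span. Of these, 658 of 766 (85.9%) fell within 0.5% of 1 of 3 values, taken as the worth of 1 read in each library. An even spread would give 3.62%. The 3 values were searched for with the gene span and not with exon length. The 35 of 831 (4.21%) near them with exon length are thus no independent comparison of both lengths. Genes with long introns therefore have smaller deposited values than division by exon length would give. Each of the histone acetylation genes named below is given as deposited and, beside it, per kilobase of exon, with the same reads divided by the joined length of all its annotated exons. The second scale takes all counted reads to lie in exons, which was not tested. The low values also gave a summed depth of 188 M reads, so that an estimated 1150 reads lay behind the least covered of these genes (Brdt) and 53996 behind the most covered (Brd2). Counting error alone was then at most 5.95% either side of a value.

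As a group, the histone acetylation genes stood above most protein-coding genes on both scales. As deposited, 26 of 38 reached 1 RPKM (68.4%), against 31.6% of all protein-coding genes. Their median was 2.03 RPKM, against 0.214 RPKM for all protein-coding genes, a difference of 2.76 on the log2(RPKM + 0.1) scale. At 10 RPKM or more as deposited were 2 of the 38 (Brd2 and Hdac2), a share near the 4.5% of protein-coding genes. Per kilobase of exon, all 38 were at 1 RPKM or more, against 54.1% of protein-coding genes (55.8% where the longest transcript gave the length), and 20 of 38 (52.6%) were at 10 RPKM or more, against 20.9%. Their exon-scale median was 10.9 RPKM, with quartiles of 5.27 and 14.1 RPKM, against 1.58 RPKM for protein-coding genes. The genes that fell at or above the protein-coding median numbered 33 of 38 as deposited and 36 of 38 per kilobase of exon, where Brdt and Sirt5 were the exceptions.

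**Figure D1:**
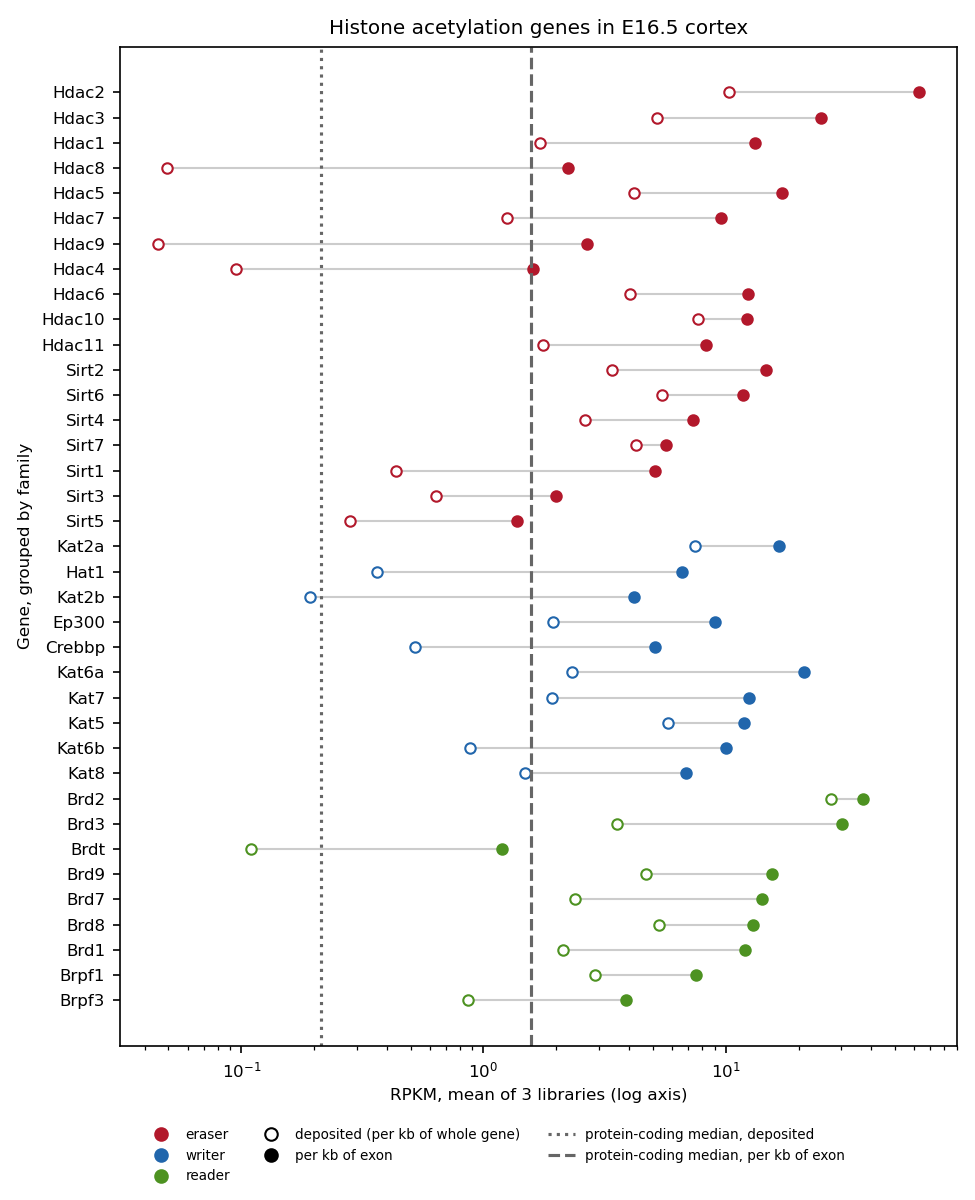
Level of 37 of the 38 genes in embryonic cortex on a log axis, as deposited (open points) and per kilobase of exon (filled points), grouped by family, with the protein-coding medians as vertical lines. Hdac2 (62.9 RPKM) is farthest right on the exon scale, and Hdac9 and Hdac8 have the longest lines between both scales.

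The spread among the genes depended on the length behind the value. From Brd2 down to Hdac9 the deposited values spanned 600.2-fold. Per kilobase of exon, from Hdac2 down to Brdt, the range was 52.5-fold. Longer genes had lower deposited values across the 38 genes (Spearman's rho -0.73 between span and level), and the relation was weaker per kilobase of exon (rho -0.28). These coefficients describe genes of the same libraries that share the length in the value, and over the 17140 protein-coding genes above 0 they were -0.23 and 0.07. The genes also had a median span of 30.4 kb, against 18.7 kb for all protein-coding genes, and a median exon length of 5.68 kb, against 3.67 kb.

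**Figure D2:**
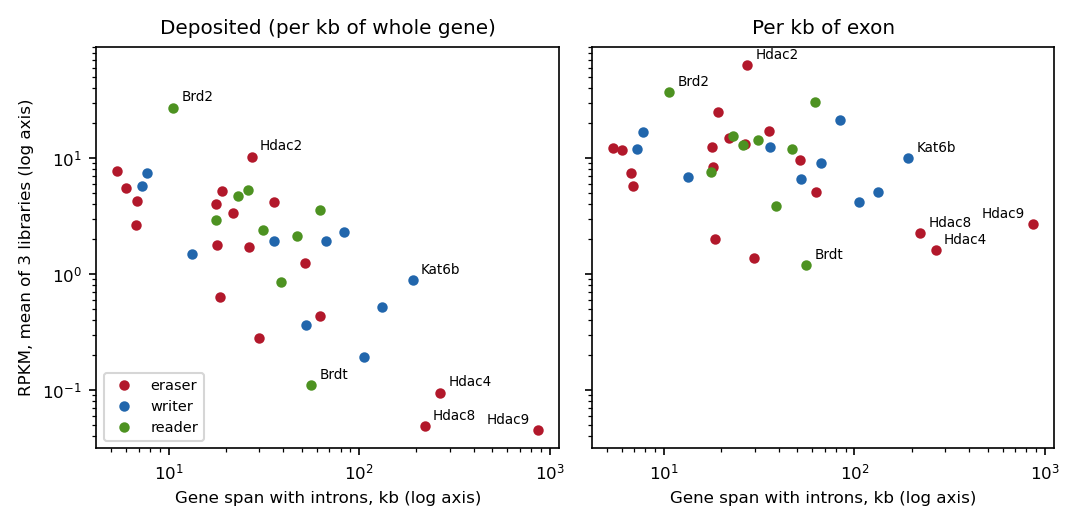
Level against gene span for 37 of the 38 genes, both on log axes, as deposited (left) and per kilobase of exon (right). The long genes Hdac4, Hdac8 and Hdac9, under 0.1 RPKM at the left, lie between 1.60 and 2.68 RPKM at the right.

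Promoters of these genes were mostly rich in CpG, the dinucleotide that is depleted elsewhere in the genome. In RefSeq's windows of 300 bases (250 before to 50 after the start, build GRCm38.p6, the start nearest the annotated gene start), 32 of the 38 genes had an entry. Of the 32, 19 held 20 or more CpG (59.4%), against 39.5% of protein-coding genes, and the median was 22.5 CpG, against 15. Hdac7 and Hdac8 with 6 each and Hdac9 with 0 were the genes under 10. Hdac4, the eraser with the lowest deposited value after Hdac9 and Hdac8, held 32. For Hdac4, Kat6b, Brd3 and Sirt1 the start used lay 15358 to 42669 bases inside the annotated gene. CpG number and level were weakly related across the 32 genes (Spearman's rho 0.16 as deposited and 0.20 per kilobase of exon), a description of genes from the same libraries. Shown here, chosen after their values were seen, are the windows of the reader and the eraser with the highest deposited values and those of both erasers with the lowest, 5′ to 3′ on the gene's strand, with CpG in capitals. Brd2 (chr17:34122558-34122857, minus strand) and Hdac2 (chr10:36974294-36974593, plus strand) held 32 and 36 CpG, and Hdac8 (chrX:102505109-102505408, minus strand) and Hdac9 (chr12:34917046-34917345, minus strand) held 6 and 0. Each start lay in an annotated exon of its own gene, and no exon of another gene reached into these windows.
Brd2: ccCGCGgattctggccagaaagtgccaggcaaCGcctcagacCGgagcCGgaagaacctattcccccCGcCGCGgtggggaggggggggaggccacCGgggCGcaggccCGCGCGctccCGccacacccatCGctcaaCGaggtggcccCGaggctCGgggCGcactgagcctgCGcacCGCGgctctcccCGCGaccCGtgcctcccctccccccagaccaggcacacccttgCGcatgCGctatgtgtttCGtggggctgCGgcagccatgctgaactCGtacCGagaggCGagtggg
Hdac2: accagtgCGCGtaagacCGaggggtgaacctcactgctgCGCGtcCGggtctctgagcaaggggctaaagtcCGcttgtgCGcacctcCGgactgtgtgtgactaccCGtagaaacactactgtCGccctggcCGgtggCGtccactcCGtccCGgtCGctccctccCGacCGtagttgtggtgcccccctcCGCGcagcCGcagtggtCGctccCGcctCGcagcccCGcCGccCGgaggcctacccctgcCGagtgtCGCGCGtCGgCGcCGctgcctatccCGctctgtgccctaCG
Hdac8: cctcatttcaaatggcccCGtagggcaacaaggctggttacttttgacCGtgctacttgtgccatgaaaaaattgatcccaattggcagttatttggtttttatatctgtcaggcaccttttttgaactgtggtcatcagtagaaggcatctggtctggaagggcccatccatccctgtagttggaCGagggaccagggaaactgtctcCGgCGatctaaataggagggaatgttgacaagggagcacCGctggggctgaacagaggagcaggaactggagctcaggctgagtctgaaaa
Hdac9: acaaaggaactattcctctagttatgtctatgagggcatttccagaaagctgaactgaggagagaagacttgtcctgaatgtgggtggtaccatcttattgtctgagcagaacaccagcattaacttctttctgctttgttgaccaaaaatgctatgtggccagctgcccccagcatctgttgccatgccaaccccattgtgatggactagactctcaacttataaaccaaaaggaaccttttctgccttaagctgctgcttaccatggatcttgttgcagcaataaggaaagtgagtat

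Class I deacetylases were led by Hdac2. Hdac1, which with Hdac2 forms the catalytic core of the Sin3, NuRD and CoREST complexes, stood at 1.72 RPKM (13.2 per kilobase of exon). Hdac2 stood at 10.3 RPKM as deposited and at 62.9 RPKM per kilobase of exon, the highest of all 38 genes on that scale and above 98.0% of protein-coding genes. Thus Hdac1 was 0.167 times Hdac2 as deposited and 0.211 times per kilobase of exon. Hdac3, the enzyme of the NCoR complex, stood at 5.23 RPKM (24.7 per kilobase of exon). Hdac8, which acts on cohesin, was at 0.0492 RPKM over a span of 221 kb and at 2.24 RPKM per kilobase of exon. Of the exon-scale sum of the class, Hdac2 held 61.0%, Hdac3 24.0%, Hdac1 12.9% and Hdac8 2.18%.

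Class IIa deacetylases, which shuttle between nucleus and cytoplasm and bind Mef2 factors, were led by Hdac5. It stood at 4.18 RPKM (17.0 per kilobase of exon) and held 55.1% of the exon-scale sum of its class. Hdac7 followed at 1.25 RPKM (9.61 per kilobase of exon). Hdac4 and Hdac9 were the lowest of the class, at 0.0949 and 0.0452 RPKM, and their spans of 267 and 870 kb were the longest of all 38 genes. Per kilobase of exon these came to 1.60 RPKM for Hdac4 and 2.68 RPKM for Hdac9, so that their order turned between scales. The ratio of Hdac5 to Hdac4 was 44.1 in the deposited values and 10.6 on the exon scale. Of the exons of Hdac4, 22.4% overlapped an exon of a gene on the other strand, whose reads could not be told apart unless strand was used in counting.

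The remaining zinc-dependent deacetylases were at middle to high levels. Hdac6, the cytoplasmic tubulin deacetylase, stood at 4.04 RPKM and Hdac10, a polyamine deacetylase, at 7.65 RPKM, a ratio of Hdac6 to Hdac10 of 0.528. On the exon scale both were close, Hdac6 at 12.3 and Hdac10 at 12.2 RPKM, a ratio of 1.01. Hdac11, the one class IV enzyme, which removes long fatty acyl groups, was at 1.77 RPKM (8.28 per kilobase of exon), with 17.9% of its exons overlapped by genes on the other strand.

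Sirt6 led the sirtuins as deposited and Sirt2 per kilobase of exon. Sirt6, a nuclear enzyme known in DNA repair, stood at 5.47 RPKM (11.8 per kilobase of exon), and Sirt7, which works in the nucleolus, at 4.26 RPKM (5.69). Sirt2, a mainly cytoplasmic enzyme, was at 3.38 RPKM and, at 14.7 RPKM, first of the family per kilobase of exon. Of the mitochondrial sirtuins, Sirt4 stood at 2.63 RPKM (7.35 per kilobase of exon), Sirt3 at 0.636 RPKM (1.98) and the desuccinylase gene Sirt5 at 0.281 RPKM (1.37). With GENCODE's spans, Sirt3 and Sirt5 were thus the lowest of the family per kilobase of exon. Of the exons of Sirt3, 12.7% were overlapped by Psmd13 and Ric8a on the other strand. Sirt1, the nuclear enzyme most studied of the family, stood at 0.434 RPKM, or 5.10 RPKM per kilobase of exon. Its length is uncertain, since RefSeq gives a span 0.319 times that of GENCODE. With RefSeq's span the exon-scale value of Sirt1 was 1.63 RPKM, below that of Sirt3. Sirt4, whose RefSeq span is 1.83 times as long, came to 13.4 RPKM in that way.

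Set against each other, the zinc-dependent and NAD-dependent erasers had no stable order. The HDAC median was 1.77 RPKM and the sirtuin median 2.63 RPKM as deposited, a difference of -0.55 on the log2(RPKM + 0.1) scale. Per kilobase of exon the HDAC median of 12.2 RPKM was above the sirtuin median of 5.69 RPKM, a difference of 1.09.

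Among the writers, the GNAT enzyme Kat2a (GCN5), of the SAGA and ATAC complexes, had the highest deposited value, 7.49 RPKM (16.6 per kilobase of exon). Its paralog Kat2b (PCAF), which can take its place in these complexes, stood at 0.192 RPKM (4.17 per kilobase of exon). The ratio of Kat2a to Kat2b was 39.1 in the deposited values and 3.99 on the exon scale. Their spans were 7.72 and 106 kb. Kat2b-ps, a processed pseudogene of Kat2b, was listed at 0. Hat1, which acetylates newly made histone H4 before it enters chromatin, stood at 0.363 RPKM (6.63 per kilobase of exon).

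Crebbp stood below Ep300 on each length scale. These paralogs encode CBP and p300, the coactivators that acetylate histones at enhancers. Crebbp stood at 0.523 RPKM and Ep300 at 1.93 RPKM as deposited, and Crebbp at 5.13 and Ep300 at 9.03 RPKM per kilobase of exon. Crebbp was 0.271 times Ep300 as deposited, 0.568 times per kilobase of exon and 0.477 times per kilobase of the longest transcript. An estimated 13035 reads lay behind Crebbp and 24183 behind Ep300.

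Of the MYST writers, 4 of 5 reached 1 RPKM as deposited, against 31.6% of protein-coding genes. Kat5 (TIP60) stood at 5.78 RPKM (11.9 per kilobase of exon), with 12.1% of its exons overlapped by Rnaseh2c on the other strand, and came to 14.1 RPKM per kilobase of exon with the longer RefSeq span. Kat6a (MOZ) stood at 2.32 RPKM and, at 21.2 RPKM, was the highest of all 10 writers on the exon scale. Kat7 (HBO1) followed at 1.93 RPKM (12.5), Kat8 (MOF) at 1.48 RPKM (6.83) and Kat6b (MORF) at 0.882 RPKM (10.02). Exon-scale levels of these 5 genes thus ran from 6.83 to 21.2 RPKM, with Kat8 lowest. The ratio of Kat6a to Kat6b was 2.63 in the deposited values and 2.11 on the exon scale. With the same reads per kilobase of the longest transcript it was 0.973, so their order turned with the length used.

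**Figure D3:**
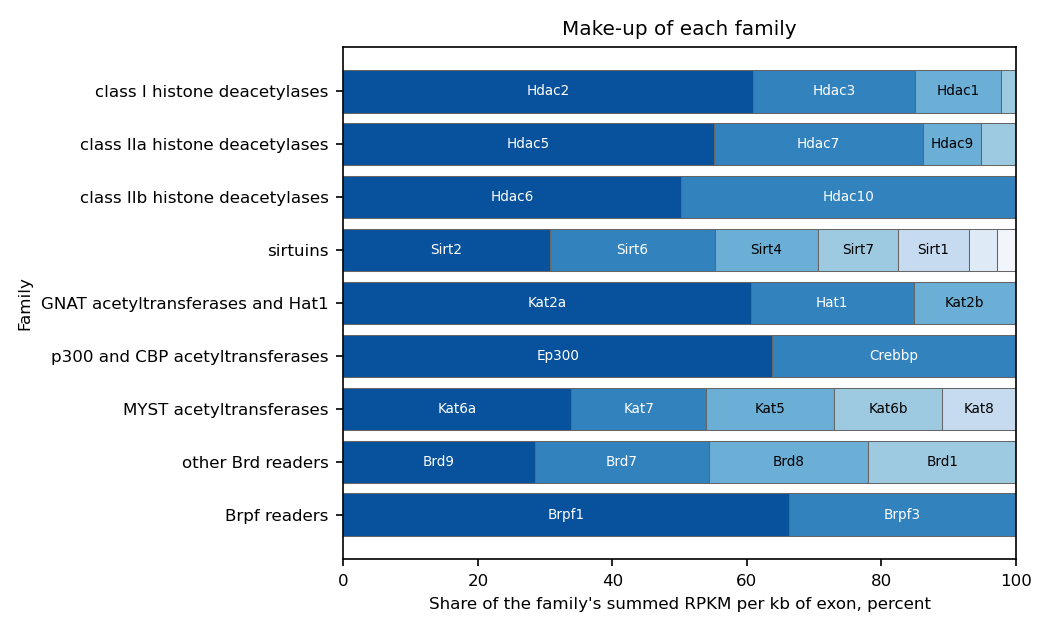
Share of each family's summed RPKM per kilobase of exon held by each gene, in percent, for 9 families with more than 1 gene. Hdac2, Hdac5, Kat2a, Ep300 and Brpf1 each hold most of their family, while the other Brd readers are near equal shares.

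Of the estimated reads on the 38 genes, 38.3% fell on the 10 readers, 35.4% on the 18 erasers and 26.3% on the 10 writers. These shares are not corrected for gene length. Summed RPKM per kilobase of exon had another order, with 215 for erasers, 148 for readers and 104 for writers. Readers had the highest deposited median of the 3 roles, 2.64 RPKM, against 2.20 RPKM for erasers and 1.71 RPKM for writers. The order of readers above writers held per kilobase of exon (13.3 against 9.52 RPKM). That of erasers above writers did not (8.95 against 9.52 RPKM). The BET gene Brd2, whose product binds acetylated histone tails, was the highest of all 38 genes as deposited, at 27.1 RPKM, and the next after Hdac2 per kilobase of exon, at 36.8 RPKM. Of its exons, 9.78% were overlapped by genes on the other strand. Brd3 stood at 3.57 RPKM and 30.2 RPKM per kilobase of exon. The ratio of Brd2 to Brd3 was 7.60 in the deposited values and 1.22 on the exon scale. Brdt, the testis member of the family, was at 0.110 RPKM and, at 1.20 RPKM, the lowest of all 38 genes per kilobase of exon.

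Of the readers outside the BET family, the 4 Brd genes were close to each other on the exon scale. Brd8, of the TIP60 complex, stood at 5.29 RPKM (12.9 per kilobase of exon), Brd9, of a BAF complex, at 4.68 RPKM (15.5) and Brd7, of the PBAF complex, at 2.38 RPKM (14.2). Brd1, a scaffold of MYST complexes also called BRPF2, was at 2.14 RPKM (12.0). These 4 genes lay within 1.30-fold of each other per kilobase of exon and within 2.48-fold as deposited. Of the other MYST scaffolds, Brpf1 stood at 2.90 RPKM (7.57 per kilobase of exon) and Brpf3 at 0.860 RPKM (3.86). Brd1 was 0.737 times Brpf1 as deposited and 1.58 times per kilobase of exon.

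Over 18 pairs of related genes, 15 differed by more than 1.5-fold as deposited and 14 per kilobase of exon, and 9 did so in the same direction on both scales and per kilobase of the longest transcript. These 9 were Hdac2 above Hdac1, Hdac3 above Hdac8, Hdac5 above its class IIa relatives, Sirt2 above Sirt1, Kat2a above Kat2b, Ep300 above Crebbp, and Brpf1 above Brpf3. Ratios of 3 pairs fell on both sides of 1 between scales: Hdac6 and Hdac10, Kat6a and Kat6b, and Brd1 and Brpf1. Hdac6 over Hdac10 was near level per kilobase of exon (1.01) and of the longest transcript (0.9997). Kat6a over Kat6b was also close to 1 per kilobase of the longest transcript (0.973). With counting error alone, the 95% interval of the deposited ratio of Hdac1 to Hdac2 was 0.163 to 0.171, against values of 0.167, 0.211 and 0.259 for that pair on these 3 scales.

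**Figure D4:**
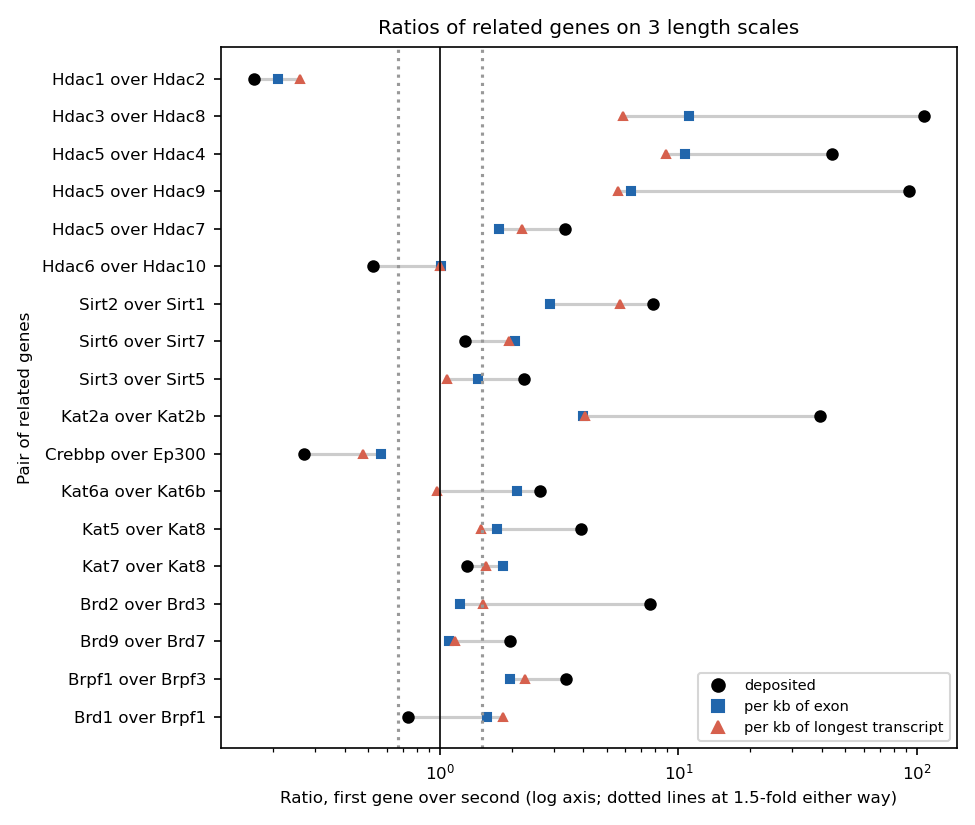
Ratio of the first gene over the second for 18 pairs on a log axis, as deposited (circles), per kilobase of exon (squares) and per kilobase of the longest transcript (triangles), with 1.5-fold marked either way. Circles reach 106 for Hdac3 over Hdac8, where the squares and triangles lie at 11.03 and 5.84.

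Partners of the deacetylases ranged widely, and single partners are named by their deposited values, whose order can turn per kilobase of exon. As deposited, 31.6% of all protein-coding genes reached 1 RPKM. Of the 12 NuRD genes, 9 reached 1 RPKM, with the helicase gene Chd3 at 30.7, Mta2 at 14.4, the methyl-CpG-binding family gene Mbd3 at 14.2 and its relative Mbd2, the lowest, at 0.278 RPKM, and an exon-scale median of 27.3 RPKM. For CoREST, 6 of 9 did so, with Rcor2 at 17.4, Zmym3 at 9.14, the demethylase gene Kdm1a at 4.62 and Rcor3 at 0.346 RPKM, while per kilobase of exon Kdm1a at 46.5 RPKM was above Rcor2 at 43.5 RPKM. For Sin3, 8 of 12 did so, with Ing1 at 8.75, Sap18 at 5.57, Sap30 at 3.95 and Arid4a at 0.582 RPKM. NuRD thus had the highest exon-scale median of the deacetylase complexes, against 18.2 RPKM for NCoR, 14.6 RPKM for CoREST and 10.5 RPKM for Sin3. Of the Hdac3 partners, Gps2 stood at 13.1, Ncor1 at 1.80, Tbl1x at 0.762 and Tbl1xr1 at 0.413 RPKM, 2 of 4 at 1 RPKM. MiDAC, an Hdac1 and Hdac2 complex, had none of 3 at 1 RPKM as deposited, against 31.6% of protein-coding genes. Dnttip1 was at 0.711, Elmsan1 at 0.349 and Trerf1 at 0.0871 RPKM. All 3 reached 1 RPKM per kilobase of exon, with a median of 3.20 RPKM, against 54.1% of protein-coding genes. The Mef2 factors that class IIa enzymes bind were at 2.60 (Mef2d), 2.25 (Mef2c) and 0.516 RPKM (Mef2a), with Mef2b listed at 0. Per kilobase of exon Mef2c at 23.3 RPKM was above Mef2d at 12.9 RPKM.

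Partners of the writers, named in the same way by deposited values, also differed by complex. Of all protein-coding genes, 31.6% reached 1 RPKM as deposited. For TIP60, 12 of 14 genes reached 1 RPKM, with Morf4l2 at 24.7, Morf4l1 at 10.2, Mrgbp at 9.16 and Epc2 at 0.801 RPKM, and for the MSL and NSL complexes of Kat8, 8 of 10, with the glycosyltransferase gene Ogt at 12.4, Msl1 at 10.8, Hcfc1 at 9.90 and Phf20 at 0.915 RPKM. For SAGA and ATAC, 10 of 15 did so, with Dr1 at 3.88, Tada1 at 3.81, Tada3 at 3.64 and Supt3 at 0.0293 RPKM. For the MOZ and HBO1 partners, 2 of 6 did so (33.3%), a share near that of all protein-coding genes. Ing4 stood at 9.58, Meaf6 at 3.12, Ing5 at 0.833 and Jade2 at 0.0341 RPKM. The exon-scale medians were 20.5 RPKM for MSL and NSL, 18.2 for TIP60, 7.90 for SAGA and ATAC and 5.18 for the MOZ and HBO1 partners. The share at 1 RPKM as deposited was 68.4% for the 38 histone acetylation genes, against 59 of all 89 partner genes (66.3%).

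Other bromodomain genes, YEATS and double PHD readers and the supply of cofactors were measured beside them. The share of all protein-coding genes at 1 RPKM as deposited was 31.6%. Whether the product of each bromodomain gene binds acetyl-lysine was not tested. Of 23 further bromodomain genes, 15 reached 1 RPKM, with the corepressor gene Trim28 at 52.6, Smarca4 at 5.19, the methyltransferase gene Kmt2a at 3.90 and Trim66 at 0.0359 RPKM. The exon-scale value of Trim28 was 404 RPKM with GENCODE's span and 87.0 RPKM with RefSeq's shorter one. Of the YEATS and double PHD readers, 4 of 7 reached 1 RPKM, with Dpf1, a subunit of the neuronal BAF complex, at 9.71, Yeats4 at 5.16, Dpf2 at 4.46 and Dpf3 at 0.0463 RPKM as deposited, while per kilobase of exon Yeats4 at 33.9 RPKM was above Dpf1 at 25.8 RPKM. For acetyl-CoA, the donor of the acetyl group, 4 of 6 supply genes reached 1 RPKM. As deposited, these were led by the citrate carrier gene Slc25a1 at 17.9, ATP-citrate lyase (Acly) at 5.57 and Pdha1 at 4.07 RPKM, with the acetyl-CoA synthetase gene Acss2 at 0.256 RPKM, the lowest. Per kilobase of exon Acly at 54.5 RPKM was above Slc25a1 at 24.8 RPKM. For NAD, the cofactor of sirtuins, 3 of 7 genes of its supply and use did so, with the NAD consumer Parp1 at 5.46, Nadk at 2.80, Nampt at 1.44 and Nmnat3 at 0.00697 RPKM.

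**Figure D5:**
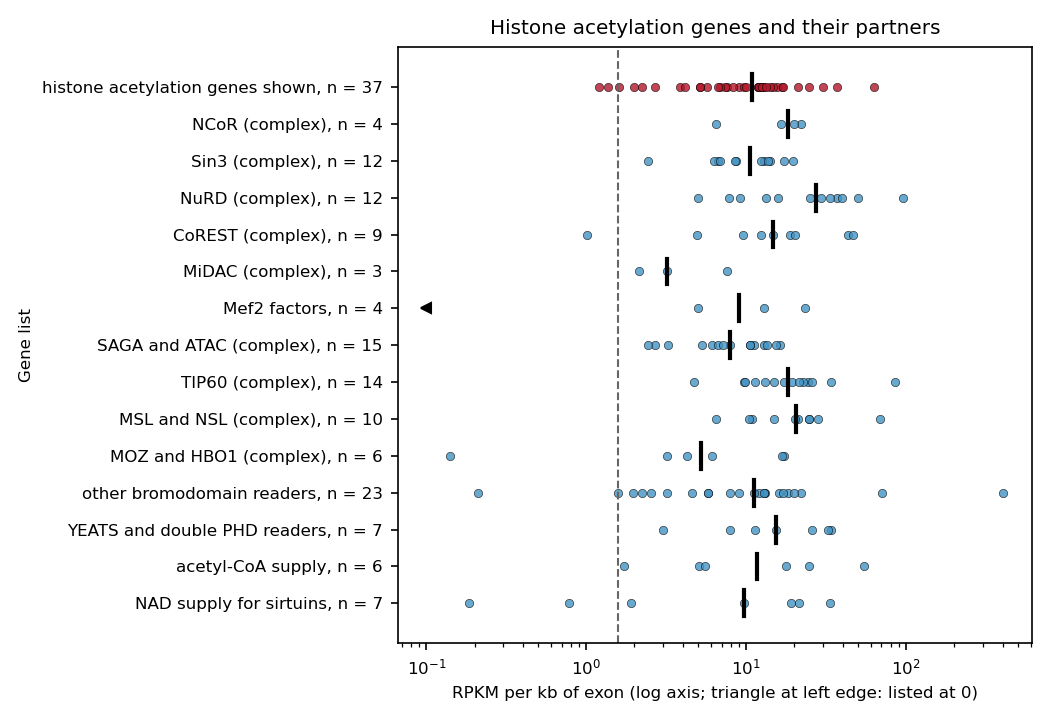
RPKM per kilobase of exon on a log axis for 37 of the 38 histone acetylation genes (top row, with the median of all 38). Below are 14 lists of partners, other bromodomain genes, YEATS and double PHD readers and cofactor supply. Bars give each list's median, and the dashed line is the protein-coding median (1.58 RPKM). NuRD has the highest median (27.3 RPKM) and MiDAC the lowest (3.20 RPKM), and the point farthest right is Trim28 (404 RPKM).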

How the data were processed

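The values were RPKM that the authors deposited as 1 mean over 3 embryonic cortex libraries. Per the labels' protocols, Trizol extraction and RNeasy Micro clean-up preceded TruSeq library construction for Illumina HiSeq sequencing. The submitters' processing notes name DESeq 1.16.0 and HTSeq 0.6.0, then Cuffdiff 2.0.2, TopHat2 2.0.9 and Bowtie2 2.1.0, with the mouse build mm9 (NCBIM37). Which of them made the RPKM values, the use of strand and the treatment of reads with several matches are not given in the sources used here. Groups came from sample titles and treatments.

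Of all gene IDs, 32919 matched GENCODE M21 (GRCm38, a later build than the authors'), which gave symbols, spans and exon lengths, and 5072 did not. The length behind the values and library depths of 51.3, 64.8 and 71.6 M reads were read from low values. Only the depths were tested on simulated data, which took the span as the length. Estimated reads are RPKM times span times depth, and ratio intervals (95%) cover counting error only. Medians of lists were compared as log2(RPKM + 0.1) with Python 3.11.15, numpy 2.4.6, pandas 2.3.3 and scipy 1.17.1, with no test. Alternatives were other pseudocounts, thresholds, filters, means, backgrounds and lengths.

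Members and lists were chosen with earlier results of these data known. Members are named, except where a result is not reported here, which counts and medians over all members still include. Lists of partners are named in whole up to 5 genes, and beyond that by their top 3 and their lowest gene above 0. Mideas and Ccdc101, other names of Elmsan1 and Sgf29, had no entry of their own.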

Additional observations from a re-analysis of the deposited data

How the results depend on the processing

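No paired analysis was possible because 1 mean column was used, which also leaves no single library to leave out. Every difference below is of medians on the log2(RPKM + 0.1) scale unless said otherwise, and the cause of each move was not tested.

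The histone acetylation genes minus protein-coding genes, 2.76 as reported, came to 1.32 with a pseudocount of 1, 3.19 with 0.01, 0.80 over genes at 0.1 RPKM or more, 1.87 with means, 2.69 without Brd2, 2.71 per kilobase of exon or of the longest transcript (a length chosen after seeing the data) and 4.22 against all listed genes. In the order of these settings up to the longest transcript, erasers minus writers (0.33) came to 0.23, 0.35, 0.96, 0.10, 0.24, -0.0911 per exon and -0.33 per transcript. Readers minus writers (0.61) came to 0.43, 0.63, 0.78 with means, 0.65 without the highest gene, 0.48 per exon and 0.43 per transcript. HDACs minus sirtuins (-0.55) came to -0.39, -0.57, 0.63 at 0.1 RPKM or more, -0.0752 with means, 0.38 without the highest gene of each list, 1.09 per exon and 0.67 per transcript. Over genes with like spans in RefSeq and GENCODE, chosen after seeing the data, erasers minus writers was 0.51 and HDACs minus sirtuins -0.90.

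The order of erasers and writers thus turned with the length used. That of HDACs and sirtuins turned with the length and, with the deposited length, also over genes at 0.1 RPKM or more and without the highest gene of each list. Of the ratios, Hdac6 over Hdac10 (0.528) came to 1.01 per exon and 1.74 in reads with no length, Brd1 over Brpf1 (0.737) to 1.58 per exon, 1.84 per transcript and 1.964 in reads, and Kat6a over Kat6b (2.63) to 0.973 per transcript. The 26 genes at 1 RPKM were 30 at 0.5 RPKM and 19 at 2 RPKM. Counting error stayed within 5.95% either side of each gene's deposited value.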
